A study of Mus musculus with 12 samples.

Results

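Fndc5 and other genes for myokines, the proteins that muscle releases, were followed in RNA-seq of mouse extensor digitorum longus (EDL), a fast-twitch hindlimb muscle. The 10 genes named were Fndc5, Il15, Metrnl, Sparc, Bdnf, Apln, Fgf21, Ctsb, Lif and Ostn. Their rows were taken by gene symbol, and 9 of the 10 were found among the 17752 genes of the table, while Fgf21 was not analysed here. A mean of at least 0.5 FPKM (fragments per kilobase of transcript, scaled to library depth) over the 12 libraries was reached by 12744 genes, among them 7 of the 9. Bdnf and Lif lay below it. Fndc5 was chosen by its own difference between the genotypes and with running, so its values in those comparisons are given as a description, without a test.

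The 12 libraries fall into 4 groups of 3. Male mice on a C57BL/6 background carried floxed Nrip1 alleles, and those labelled strNrip1-/- also carried Cre recombinase driven by the muscle creatine kinase promoter, which is active in heart and skeletal muscle. Cre-negative littermates, which the sample labels call Ctrl, are named labelled WT. Nrip1 encodes RIP140, a corepressor of nuclear receptors. From 8 weeks of age, mice of each genotype either ran on a wheel of their own accord for 8 weeks (trained) or had no wheel (sedentary). Trained mice that ran less than 5 km a night had been removed by the study, and wheels were taken away 48 hours before an endpoint. The comparison asked how the absence of RIP140 and training bear on muscle gene expression. Nothing in the labels says whether each library is a separate animal, so the tests set group differences against the spread between these libraries.

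Gene-level transcript of the targeted gene was higher, not lower, in the libraries labelled knockout. Sedentary labelled WT libraries held 3.6, 2.55 and 3.84 FPKM of Nrip1 and trained ones 2.53, 4.76 and 3.56 FPKM. Labelled strNrip1-/- libraries held 15.5, 16.3 and 14.9 FPKM without a wheel and 20.7, 14.9 and 16.6 FPKM with one. Every library labelled knockout was therefore above every library labelled WT, and the group means differed by 2.08 on the log2 scale in sedentary muscle (SE 0.198, limma adjusted p = 0.000277) and by 2.14 in trained muscle (SE 0.198, limma adjusted p = 0.000208). The study floxed the exon that holds both the start and the stop codon, and gene-level FPKM does not separate that exon from the others. These values therefore cannot check the labels. Loss of that exon or of RIP140 protein was not measured here. Each genotype direction below rests on the labels alone.

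Myokines act on the muscle itself, on fat, bone, liver, brain or vessels. Fndc5 encodes a membrane protein with a fibronectin type III domain, from which the hormone irisin is cleaved, and its transcription in muscle is known to respond to the coactivator PGC-1α, which works with estrogen-related receptors. Most myokines are released by other cell types as well, and in whole muscle the RNA of fibres, vessels, nerve and connective tissue is read together. Fewer cells of a type and less RNA per cell cannot be told apart in such libraries.

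Fndc5 (ENSMUSG00000001334) lies on the plus strand of chromosome 4, from 129136999 to 129144593 (GRCm38), with 1 annotated transcript of 2763 nt. The 250 bases before its start site are shown because Fndc5 is the gene the values turn on, and because PGC-1α partners bind known letters that can be searched for. They come from RefSeq (GRCm38.p6, chr4:129136749-129136998, plus strand), with matches to the GC box in capitals:

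Fndc5 upstream: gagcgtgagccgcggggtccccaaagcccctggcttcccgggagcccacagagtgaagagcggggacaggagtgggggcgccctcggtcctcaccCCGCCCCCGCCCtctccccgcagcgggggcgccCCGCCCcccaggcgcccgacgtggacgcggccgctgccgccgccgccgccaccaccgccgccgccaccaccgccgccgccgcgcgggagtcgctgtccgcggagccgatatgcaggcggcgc

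This stretch is 80.8% G and C. Motifs were searched on both strands of a window of 300 bases that also takes in 50 bases after the start. The GC box, GGGCGG, which Sp1-type factors bind, occurred 5 times, 3 of them before the start, and 35.7% of all 32851 promoter windows held it. The nuclear receptor half-site AGGTCA, the longer estrogen-related receptor site TNAAGGTCA, which contains that half-site, the E-box CANNTG and the cAMP response element TGACGTCA were not found in these letters. The shares of all windows that held them were 16.3%, 1.28%, 72.3% and 1.79%. Windows were also present for Metrnl, Sparc, Bdnf, Apln and Lif, and not for Il15, Ctsb and Ostn.

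Fndc5 transcripts were highest in labelled strNrip1-/- trained muscle and lowest in labelled WT sedentary muscle. Labelled WT libraries held 16.7, 19.1 and 18.5 FPKM when sedentary and 22.8, 23.7 and 20.1 FPKM when trained. Labelled strNrip1-/- libraries held 33.5, 32.1 and 33.6 FPKM when sedentary and 45.8, 46.1 and 48.5 FPKM when trained. In that order no group overlapped the next, and the narrowest gap lay between the labelled WT groups. The share of all genes whose groups separate in this way was not counted. Means were 18.1 ± 1.28, 22.2 ± 1.89, 33.1 ± 0.870 and 46.8 ± 1.47 FPKM (SD, n = 3 each). The ratio of labelled strNrip1-/- to labelled WT means was 1.83 in sedentary and 2.11 in trained muscle, and the ratio of trained to sedentary means was 1.23 in labelled WT and 1.41 in labelled strNrip1-/-. These are the values on which Fndc5 was selected.

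**Figure D1:**
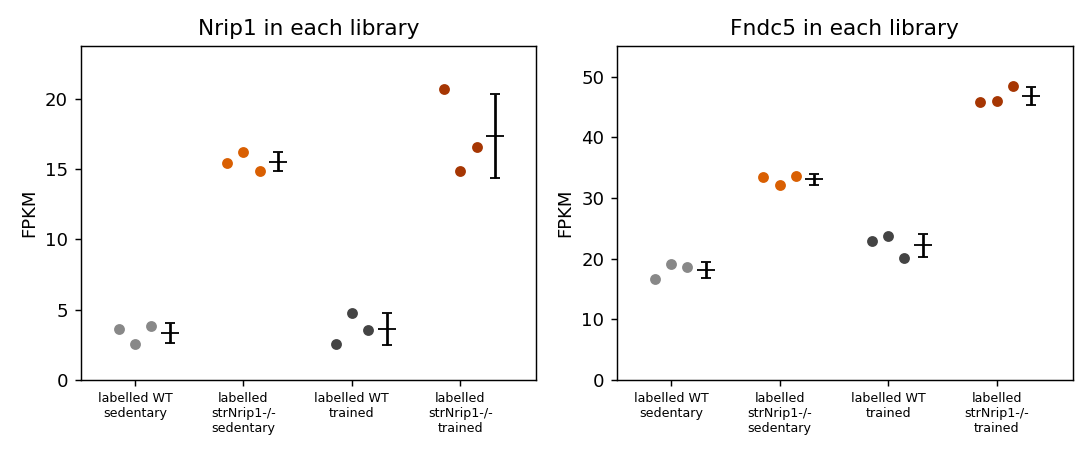
FPKM of Nrip1 (left) and Fndc5 (right) in each of the 12 libraries by labelled group, with points for libraries and bars for the mean ± SD (n = 3). Nrip1 is at or below 4.76 FPKM in every labelled WT library and at or above 14.9 FPKM in every labelled strNrip1-/- library, and Fndc5 climbs from 16.7 FPKM in the lowest library to 48.5 FPKM in the highest.

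The genotype difference of Fndc5 in each training state is made of the same values that selected the gene, so how it varied with training is also given without a test. The log2 fold change with genotype was 0.21 larger in trained than in sedentary muscle (SE 0.110, 95% interval −0.03 to 0.45). The values behind it were log2 fold changes of 0.85 (95% interval 0.68 to 1.02) in sedentary and 1.06 (95% interval 0.89 to 1.23) in trained muscle. As the gene was selected on these values, the intervals describe the spread between libraries and are no test against 0. By limma, the interaction passed in none of the 12744 genes (0%), against 989 genes at an unadjusted p under 0.05. Scaling every library to the same FPKM sum changed the size of these values: Fndc5 was then 0.70 higher in sedentary labelled strNrip1-/- muscle on the log2 scale and 0.67 higher with training in labelled strNrip1-/- muscle, where it had been 0.49. The interaction was then 0.43 in place of 0.21. The same scaling shifted the median of all genes to −0.14, 0.16 and 0.20 in these 3 contrasts, and relative to that median Fndc5 stood at 0.84, 0.50 and 0.22.

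The genes whose levels were most like that of Fndc5 over the 12 libraries were Etfdh, Hadh, Gys1, Cpt2, Fgfbp1, Iba57, Ogdh, Vwa8, Cluh and Hadha, with Pearson r from 0.97 to 0.98 on the log2(FPKM + 0.5) scale. The libraries share their 4 groups, so these correlations largely carry the group means, and no test is given. After each library's group mean was subtracted, r fell to between 0.36 for Vwa8 and 0.86 for Hadh. Etfdh, which passes electrons from acyl-CoA dehydrogenases to ubiquinone, headed the order with r = 0.98 (0.83 within groups), and its geometric mean level in labelled WT and labelled strNrip1-/- was 58.1 and 88.7 FPKM without training and 63.1 and 101.7 FPKM with it. Fgfbp1, a secreted carrier of fibroblast growth factors, measured 3.66, 6.69, 4.09 and 9.98 FPKM in the same order. The genes most opposite to Fndc5 were Crot, Xk, Adi1, Pla2g7 and Laptm4b, with r from −0.98 to −0.96. Pla2g7, a secreted phospholipase that degrades platelet-activating factor, measured 35.3, 23.3, 31.6 and 19.1 FPKM.

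**Figure D2:**
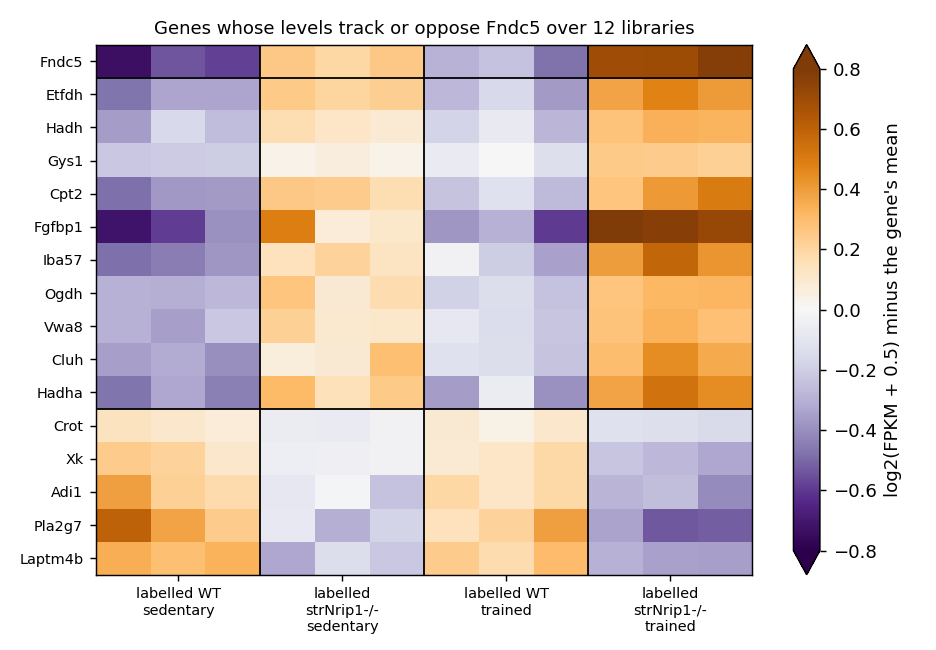
Level of Fndc5, of the 10 genes most like it and of the 5 most opposite (rows) in the 12 libraries (columns, 3 to a labelled group), as log2(FPKM + 0.5) minus the gene's mean. Rows of the upper block are darkest orange in labelled strNrip1-/- trained libraries and purple in labelled WT libraries, and the lower block is reversed.

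Several genes of the PGC-1 axis changed with the labelled genotype. None passed the test with training, where no gene of all those tested passed. Of 14 genes of the PGC-1 axis, all tested, 2 were higher and 1 was lower in sedentary labelled strNrip1-/- muscle, and 3 were higher and 1 lower in trained muscle. Of all genes tested, 3.51% and 5.98% were called in these comparisons. The median log2 fold changes of the 14 genes were 0.02 and −0.03, beside 0.00 and 0.01 over all genes tested. Ppargc1a, which encodes PGC-1α itself, was among the 14 and was not called with genotype or training. Esrra, the estrogen-related receptor α, rose by 0.47 on the log2 scale in sedentary (SE 0.069, limma adjusted p = 0.00416) and by 0.77 in trained muscle (limma adjusted p = 0.000172), from 70.7 ± 0.742 and 70.2 ± 4.75 FPKM to 98.1 ± 4.99 and 120.2 ± 6.30 FPKM. Esrrb rose in both states, from 1.34 ± 0.0985 to 2.37 ± 0.0331 FPKM and from 1.52 ± 0.305 to 2.52 ± 0.125 FPKM. Ppargc1b, which encodes PGC-1β, rose in trained muscle, from 3.15 ± 1.3 to 7.54 ± 1.82 FPKM. Nr4a1, an activity-responsive orphan receptor, fell in sedentary muscle, from 91.0 ± 3.66 to 57.6 ± 7.67 FPKM, and Mef2a fell in trained muscle, from 26.5 ± 0.742 to 21.3 ± 0.515 FPKM.

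Of the 10 other genes of the Fndc family, 5 reached the mean of 0.5 FPKM, and none passed in any comparison. Between 0% and 5.98% of all genes were called in these comparisons, so 0 of 5 is near the background. The highest were Fndc1 and Fndc3b. In sedentary muscle Fndc1 averaged 11.1 ± 0.251 and 11.7 ± 1.18 FPKM in the labelled WT and labelled strNrip1-/- groups, and Fndc3b averaged 2.08 ± 0.340 and 2.09 ± 0.256 FPKM. Among 14 tested receptors and partners of the myokines, 1 passed: Itgb5, which encodes the β5 chain of an integrin reported to bind irisin, was higher in trained labelled strNrip1-/- muscle, at 49.2 ± 0.431 against 38.0 ± 4.05 FPKM (log2 fold change 0.38, SE 0.083, limma adjusted p = 0.0232). With 5.98% of all genes called there, 1 of 14 is near the background.

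The members other than Fndc5 passed in no comparison. Of 6 tested, 0 were called by limma (adjusted p under 0.05 and a fold change over 1.2) with genotype in sedentary muscle, where 3.51% of all genes were called, and 0 with genotype in trained muscle, where 5.98% were called. With training, 0 of the 6 were called in labelled WT and 0 in labelled strNrip1-/- muscle, and the share of all genes called was 0% in each, although 1061 and 1544 genes had an unadjusted p under 0.05. At an unadjusted p under 0.05, Il15, Sparc and Ostn differed with genotype in sedentary muscle, Il15 in trained muscle, Sparc with training in labelled WT and Ostn with training in labelled strNrip1-/- muscle. With genotype, 2080 of the 12744 genes had such a p in sedentary muscle and 2683 in trained muscle. The shares of all genes called are themselves low, and a count of 0 among 6 lies near them. Where groups of a member are said below not to overlap, the share of all genes split in that way was not counted.

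**Figure D3:**
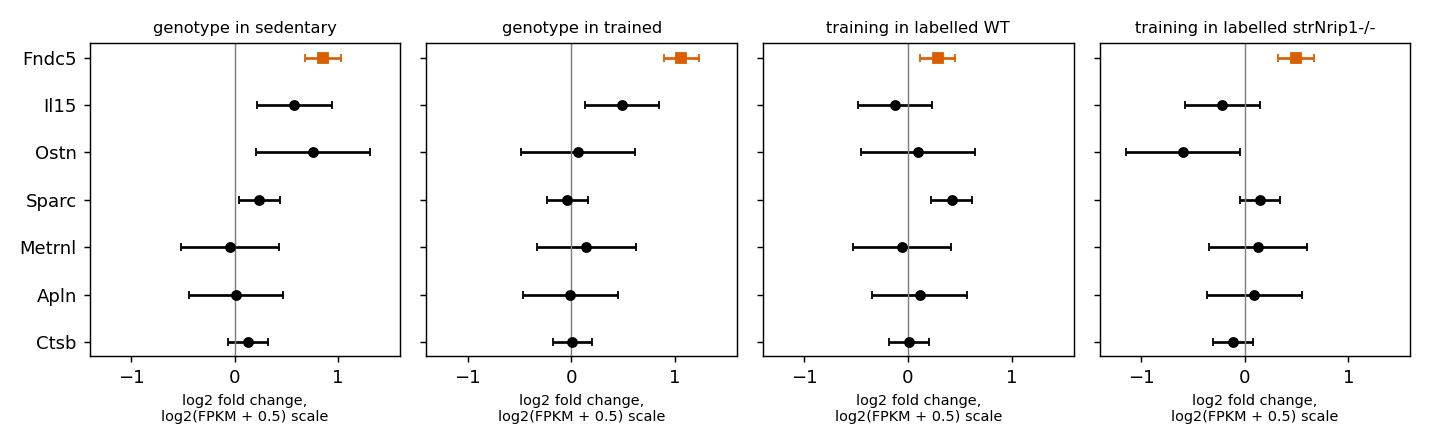
Log2 fold change on the log2(FPKM + 0.5) scale (horizontal axis) of the 7 members that reached 0.5 FPKM, in 4 comparisons, with 95% intervals from limma. Fndc5 (orange squares) was selected on these values, so its intervals describe the spread between libraries and are no test. Among the others the intervals of Il15, Ostn and Sparc leave 0 in some panels, while those of Metrnl, Apln and Ctsb span it in all 4.

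Il15 encodes interleukin-15, a cytokine that sustains natural killer and memory T cells and that muscle makes in quantity. Il15 stood at 7.50, 9.72 and 5.95 FPKM in labelled WT against 10.7, 13.5 and 10.7 FPKM in labelled strNrip1-/- muscle without training. With training, the values were 7.45, 7.33 and 6.02 FPKM and 11.2, 9.05 and 9.53 FPKM. The labelled genotypes did not overlap in either state, whereas the training groups overlapped in both genotypes. The log2 fold change with genotype was 0.58 (SE 0.164, limma adjusted p = 0.0871) in sedentary and 0.49 (SE 0.164, limma adjusted p = 0.107) in trained muscle, and neither passed. It passed without labelled WT sedentary replicate 2 (log2 fold change 0.75, adjusted p = 0.0383) and, in trained muscle, with libraries scaled to the same sum (0.55, adjusted p = 0.0431), and over all alternatives the adjusted p ran from 0.0383 to 0.263 and from 0.0431 to 0.290. Its own receptor chain, Il15ra, averaged 13.5 ± 2.23 and 16.2 ± 2.51 FPKM in the sedentary labelled WT and labelled strNrip1-/- groups (limma adjusted p = 0.560).

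Ostn encodes musclin, a peptide released by muscle and bone-forming cells that slows the clearance of natriuretic peptides. Ostn stood at 9.15, 9.83 and 6.39 FPKM in labelled WT against 15.6, 12.9 and 14.9 FPKM in labelled strNrip1-/- muscle without training. With training, the values were 7.99, 8.62 and 10.4 FPKM and 15.1, 8.12 and 6.69 FPKM. The sedentary genotypes did not overlap, and in labelled strNrip1-/- trained muscle replicate 1 stood far above the other two. The log2 fold change with genotype was 0.76 (SE 0.25, limma adjusted p = 0.145) in sedentary and 0.07 (SE 0.25, limma adjusted p = 0.922) in trained muscle. Without labelled strNrip1-/- trained replicate 1 the sedentary difference passed (adjusted p = 0.0358, against 0.0358 to 0.380 over all alternatives), its size of 0.76 being untouched, and the trained value turned to −0.26. Training in labelled strNrip1-/- muscle gave −0.59 (SE 0.25, limma adjusted p = 0.381), which became −0.92 when replicate 1 of the trained labelled strNrip1-/- group was left out and −0.36 when its replicate 3 was (adjusted p = 0.110 and 0.699, the range over all alternatives being 0.110 to 0.720). The interaction was −0.69 (95% interval −1.47 to 0.09, limma adjusted p = 0.660). The antisense gene Gm32312 shares 184 exon bases with Ostn, and the library kit does not mark strand.

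Sparc encodes osteonectin, a collagen-binding protein of the extracellular matrix made by fibroblasts, endothelium and muscle. Sparc stood at 162.3, 171.6 and 152.9 FPKM in labelled WT against 185.3, 207.0 and 182.2 FPKM in labelled strNrip1-/- muscle without training. With training, the values were 209.7, 245.5 and 199.6 FPKM and 227.3, 205.2 and 203.9 FPKM. All labelled WT trained libraries were above all labelled WT sedentary ones, as were all labelled strNrip1-/- sedentary ones, whereas the sedentary and trained labelled strNrip1-/- groups overlapped, as did the genotypes in trained muscle. With training the log2 fold change was 0.42 in labelled WT (SE 0.090, 95% interval 0.23 to 0.62, limma unadjusted p = 0.000616, adjusted p = 0.294) and 0.15 in labelled strNrip1-/- muscle (SE 0.090, limma adjusted p = 0.551). After quantile normalization the labelled WT value was 0.47 and passed (adjusted p = 0.0329), and with libraries scaled to the same sum the labelled strNrip1-/- value was 0.32 and passed (adjusted p = 0.0352), where the median of all genes was 0.16. Over all alternatives the adjusted p ran from 0.0329 to 0.679 and from 0.0352 to 0.741. With genotype in sedentary muscle the log2 fold change was 0.24 (SE 0.090, limma adjusted p = 0.206), and 0.081 with libraries scaled to the same sum (adjusted p = 0.478, the range over all alternatives being 0.0690 to 0.478).

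Of 14 tested genes of the matrix around Sparc, none passed in any comparison, where between 0% and 5.98% of all genes were called. The median log2 fold change of the 14 with training was 0.25 in labelled WT and −0.02 in labelled strNrip1-/- muscle, beside 0.00 and 0.01 over all genes. Col1a1 and Col1a2, the chains of type I collagen, were the genes most like Sparc over the 12 libraries (r = 0.93 and 0.92, and 0.75 and 0.79 within groups). In labelled WT muscle Col1a1 measured 57.7 ± 2.42 FPKM without and 119.6 ± 15.3 FPKM with training (log2 fold change 1.04, SE 0.131, limma adjusted p = 0.0593), and Col1a2 measured 91.2 ± 6.27 and 156.9 ± 14.1 FPKM.

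**Figure D4:**
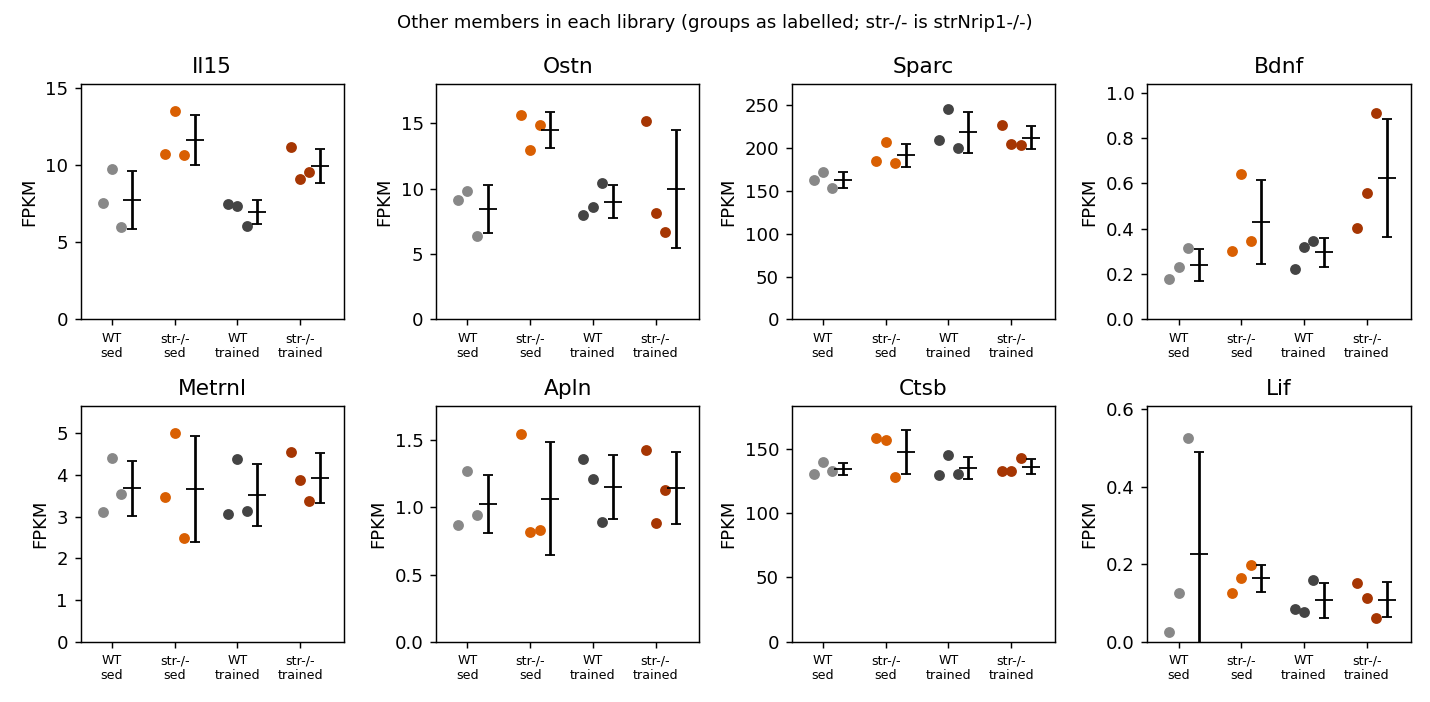
FPKM of the 8 members other than Fndc5 in each of the 12 libraries by labelled group (WT, labelled WT; str-/-, labelled strNrip1-/-; sed, sedentary), with points for libraries and bars for the mean ± SD (n = 3, and the bar of Lif in labelled WT sedentary muscle is cut at 0). Il15 is split by labelled genotype in both states, Ostn and Sparc in sedentary muscle and Bdnf in trained muscle, and Metrnl, Apln, Ctsb and Lif overlap throughout. The share of all genes split in this way was not counted.

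Bdnf, a neurotrophin made by muscle fibres and nerve, was detected at a low level. Bdnf stood at 0.176, 0.229 and 0.315 FPKM in labelled WT against 0.302, 0.642 and 0.347 FPKM in labelled strNrip1-/- muscle without training. With training, the values were 0.224, 0.318 and 0.348 FPKM and 0.402, 0.556 and 0.909 FPKM. The genotypes overlapped in sedentary and not in trained muscle. The mean difference of log2(FPKM + 0.5) between genotypes, taken within each training state, was 0.39 (exact permutation test within strata, two-sided, p = 0.01, the smallest possible being 0.005), and that between training states was 0.19 (exact permutation p = 0.2). These are 2 of 4 such tests, with no adjustment. The exact p for genotype ran from 0.005 to 0.03 over the alternatives. Estimated fragments behind these values ran from 16.4 to 103.4 in a library, and 896 exon bases are shared with the antisense gene Gm45346. The Bdnf receptor Ntrk2 averaged 0.814 ± 0.0834 and 1.13 ± 0.414 FPKM in the sedentary labelled WT and labelled strNrip1-/- groups (limma adjusted p = 0.512).

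Lif encodes leukemia inhibitory factor, a cytokine of the interleukin-6 family. Lif stood at 0.0247, 0.126 and 0.524 FPKM in labelled WT against 0.127, 0.166 and 0.197 FPKM in labelled strNrip1-/- muscle without training. With training, the values were 0.0842, 0.0780 and 0.158 FPKM and 0.151, 0.112 and 0.0610 FPKM. Labelled WT sedentary libraries held both the lowest and the highest value, and 1 library lay at or under 3 fragments as estimated with the longest transcript. No genotype difference was detectable (exact permutation within strata, p = 0.89), nor one with training (exact permutation p = 0.33). Of 8 tested genes of its pathway, 1 passed, in a comparison where 3.51% of all genes did: Jak1, a kinase of cytokine receptors, rose in sedentary labelled strNrip1-/- muscle, from 31.5 ± 0.928 to 44.9 ± 6.96 FPKM (log2 fold change 0.49, SE 0.095, limma adjusted p = 0.0166).

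Metrnl, Apln and Ctsb overlapped between the groups of all 4 comparisons. Metrnl, which encodes the adipose-acting hormone meteorin-like, ranged from 2.49 to 5.0 FPKM, and its log2 fold changes ran from −0.06 (95% interval −0.54 to 0.42) with training in labelled WT to 0.15 (95% interval −0.33 to 0.62) with genotype in trained muscle. Apln, which encodes the vasoactive peptide apelin, ranged from 0.816 to 1.55 FPKM, and its log2 fold changes lay between −0.01 (95% interval −0.47 to 0.45) and 0.11 (95% interval −0.35 to 0.57). Ctsb, the lysosomal protease cathepsin B, ranged from 128.0 to 158.2 FPKM. Its largest log2 fold change was 0.13 (95% interval −0.06 to 0.32) with genotype in sedentary muscle.

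Ctsb shares 774 exon bases with Fdft1 on the opposite strand, which ranged from 46.9 to 53.8 FPKM over the 6 labelled WT libraries and averaged 67.9 ± 19.5 and 83.8 ± 6.48 FPKM in the sedentary and trained labelled strNrip1-/- groups. Reads from the shared bases cannot be told apart. Of 17 other lysosomal genes tested, 1 passed: Lamp2, a lysosomal membrane protein, was lower in trained labelled strNrip1-/- muscle, at 23.0 ± 0.448 against 31.0 ± 1.73 FPKM, and 1 of 17 is near the 5.98% of all genes called there.

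Of 23 other myokine genes tested, 2 passed with genotype in sedentary and 1 in trained muscle, near the 3.51% and 5.98% of all genes called. Metrn, the neurotrophic relative of Metrnl, fell in sedentary labelled strNrip1-/- muscle, from 34.7 ± 0.853 to 22.5 ± 4.22 FPKM (log2 fold change −0.63, SE 0.121, limma adjusted p = 0.0167). Nampt, an enzyme of NAD synthesis that is also secreted, rose in sedentary muscle, from 33.9 ± 2.25 to 42.4 ± 2.67 FPKM. Fgf2 fell in trained muscle, from 1.66 ± 0.102 to 1.11 ± 0.0502 FPKM. The median log2 fold change of the 23 genes was 0.09 in sedentary and 0.05 in trained muscle. Of 11 tested genes of the integrated stress response, a pathway known to drive Fgf21, 1 passed in each genotype comparison, beside 3.51% and 5.98% of all genes: Atf5 was higher in labelled strNrip1-/- than in labelled WT muscle when sedentary, at 60.2 ± 10.9 against 41.1 ± 4.04 FPKM, and when trained, at 63.5 ± 2.57 against 45.5 ± 5.23 FPKM.

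Fibre markers were abundant in every library. The 8 were Ckm, Acta1, Myh4, Myh1, Tnnt3, Tnni2, Pvalb and Actn3, a list that includes fast-fibre genes. Their summed level was lower in every labelled strNrip1-/- library, at 78342 to 101958 FPKM. Labelled WT libraries held 102048 to 123256 FPKM, so the nearest libraries lay close together. In each genotype comparison 1 of the 8, Actn3, was called, beside 3.51% and 5.98% of all genes, and 1 of the 8 had a log2 fold change above 0. Actn3, the fast-fibre α-actinin, fell with labelled genotype, from 3286 ± 297 to 1752 ± 96.8 FPKM in sedentary muscle. The 10 endothelial markers summed to 158.2 to 165.4 and 143.6 to 163.6 FPKM in labelled WT sedentary and trained muscle, against 168.6 to 202.9 and 178.4 to 184.9 FPKM in labelled strNrip1-/- muscle. Tie1 alone passed, 1 of 10, and only with genotype in trained muscle, where 5.98% of all genes were called. With genotype, 10 of the 10 had a log2 fold change above 0 in sedentary and 9 in trained muscle (medians 0.21 and 0.23). The 6 adipocyte markers summed to 12.4 to 25.5 FPKM in labelled WT sedentary libraries and to 35.1 to 116.0 FPKM in the other groups, and none of the 5 tested passed. The 6 tendon markers ran from 231.0 to 445.5 FPKM over all libraries, overlapping between the groups, and none passed. Mitochondrially encoded genes took 51.2% to 52.8% of the summed FPKM in labelled strNrip1-/- sedentary libraries and 42.2% to 47.3% in the other 9. No defining marker of endothelium, adipocytes or tendon was at 0 in any library. Their part in the values of the members was not tested.

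**Figure D5:**
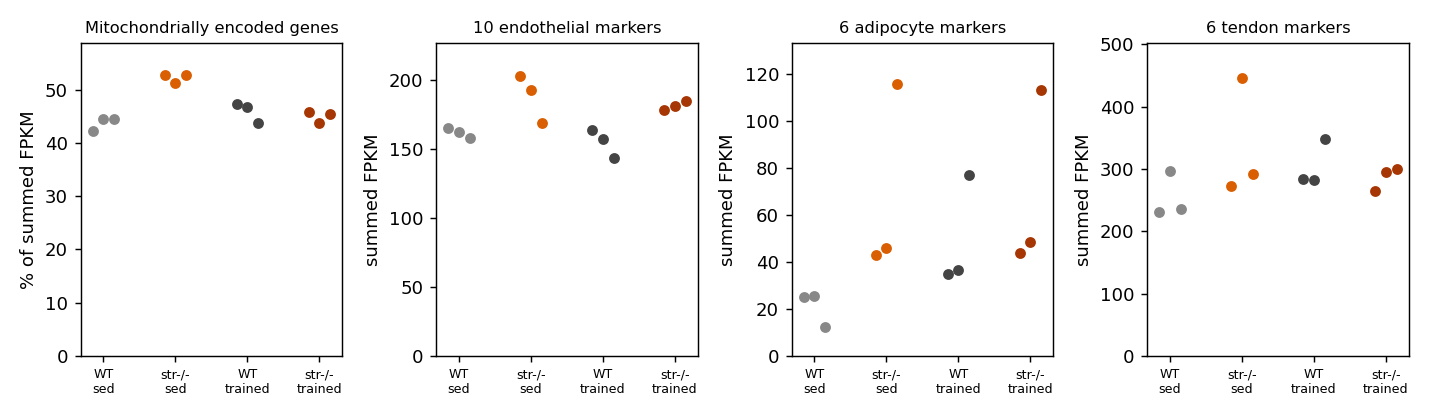
Share of summed FPKM from mitochondrially encoded genes, and summed FPKM of endothelial, adipocyte and tendon markers, in each library by labelled group (points, 3 to a group; abbreviations as for the members). Labelled strNrip1-/- sedentary libraries lie at 51.2% to 52.8% in the first panel, and labelled WT sedentary libraries lie lowest for adipocyte markers, at 12.4 to 25.5 FPKM.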

How the data were processed

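Total RNA from EDL was treated with DNase, and the library kit did not mark strand. The authors quantified reads against mm10 with Salmon 1.10.2, brought transcripts to gene level with tximport and ran DESeq2 1.44.0. Values were deposited as FPKM for each gene and library, and how genes were kept is not given in the sources used here. The deposited table also holds the authors' own log2 fold changes and adjusted p-values for 4 comparisons, which were not used.

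Sequencing depth was gauged from 1613 genes with 1 transcript over 1500 nt, whose low FPKM are spaced in steps of 1 fragment. Estimated depth spanned 20.6 M to 30.0 M fragments, with 98.8% to 99.7% of values within 0.15 of a whole number, against 30% for evenly spread values. At 3 fragments, a 2 kb gene has 0.0625 to 0.0909 FPKM. These floors cover counting error only.

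A model with 4 group means was fitted to log2(FPKM + 0.5) of the 12744 genes that averaged 0.5 FPKM or more, in all 12 libraries, with limma 3.58.1 in R 4.3.3 (lmFit, contrasts.fit, eBayes with a trend). Two-sided p-values were adjusted by Benjamini-Hochberg within each of 5 contrasts. A gene was called at an adjusted p under 0.05 and a fold change over 1.2, and the interaction at the adjusted p alone. The Fndc5 interaction, planned as a test, is given as a description, since the gene was chosen on the same values. This scale understates changes of low genes. Bdnf and Lif were tested by exact permutation within strata. Coordinates are from GENCODE M21, in which 17732 identifiers matched. No replicate pair held identical values.

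The members and lists were chosen with earlier results of these data known. Named genes were the members, the 10 genes most like and 5 most opposite to Fndc5, the 3 most like each other tested member, and from each list up to 5 called genes by smallest adjusted p, or the 2 highest when none was called. Il15ra, Ntrk2, Fdft1, Gm32312 and Gm45346 were named beside a member after their values or positions were seen. Values of some marker genes are not reported here.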

Additional observations from a re-analysis of the deposited data

How the results depend on the processing

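Of the member values recomputed under the alternatives, 695 kept their direction and their side of the threshold, 6 newly passed and 50 changed sign. All of the last were among values that passed no test. With genotype or training Fndc5 had no threshold and was set against the replicate spread, and 2 values moved by more than that. Other filters, the replicate block and fits to the 6 libraries of a contrast left its fold change as it was. So did leaving out a library of another group. Such settings could change only the adjusted p, yet they count among the 695. Bdnf kept its direction throughout. Fndc5 did too, but its direction with genotype and running is what selected it. With libraries scaled to the same sum, the calls for genotype went from 54.8% to 18.6% higher in sedentary and from 53.7% to 80.9% higher in trained muscle, the count of members called was 1 (Il15, genotype in trained) and 1 (Sparc, training in labelled strNrip1-/-), and all genes called with training numbered 1 in labelled WT and 150 in labelled strNrip1-/- muscle. The same scaling turned the log2 fold change with genotype to −0.087 for Apln and −0.027 for Ctsb in sedentary muscle and to 0.027 for Sparc and 0.037 for Apln in trained muscle, Ctsb to −0.036 and 0.064 with training in labelled WT and labelled strNrip1-/-, and the interaction to 0.12 for Il15, 0.12 for Apln and 0.10 for Ctsb. Relative to the median of all genes under this scaling, each of these kept its unscaled sign. Genotype then gave 0.051 for Apln and 0.11 for Ctsb in sedentary muscle, and −0.035 for Sparc and −0.024 for Apln in trained muscle. Ctsb stood at 0.00046 and −0.10 with training, and the interactions at −0.085 for Il15, −0.081 for Apln and −0.10 for Ctsb. Quantile normalization called 1 member (Sparc) and 4 genes with training in labelled WT, and turned Apln to −0.0047 (genotype in sedentary) and 0.00043 (interaction) and Ctsb to −0.011 (genotype in trained). With only the 6 libraries of a contrast, 174 and 446 genes were called with genotype. At a pseudocount of 0.1, Lif with genotype was 0.0069. The cause of these shifts was not tested.

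Leaving out 1 library at a time, 0 to 1 members were called with genotype in sedentary muscle (Il15 without labelled WT sedentary replicate 2, Ostn without labelled strNrip1-/- trained replicate 1), and all genes called numbered 164 to 482 and 315 to 874 with genotype in sedentary and trained muscle, 0 to 30 and 0 to 4 with training in labelled WT and labelled strNrip1-/-, and 0 to 1 for the interaction. The sedentary count was lowered by over 1.5 times without any labelled WT sedentary library (164, 222 and 216 for replicates 1 to 3) or labelled strNrip1-/- sedentary replicate 1 (260), and the trained count without labelled WT trained replicate 1 (389) or 3 (386) or labelled strNrip1-/- trained replicate 2 (334) or 3 (315). The 30 genes were called without labelled WT trained replicate 1. Fewer libraries enter these fits. Low depth limits Bdnf and Lif, which rest on 16.4 to 103.4 and 2.16 to 39.2 estimated fragments in a library. These estimates take the longest annotated transcript. Lif transcripts span 390 to 4026 nt, so its fragments can be fewer. Log2 values that changed sign ran, with genotype in sedentary muscle, from −0.27 to 0.17 for Metrnl and −0.20 to 0.13 for Apln, and in trained muscle from −0.10 to 0.050 for Sparc, −0.13 to 0.11 for Apln, −0.026 to 0.063 for Ctsb and −0.26 to 0.30 for Ostn. With training in labelled WT they ran from −0.29 to 0.044 for Il15, −0.21 to 0.061 for Metrnl, −0.045 to 0.037 for Ctsb and −0.079 to 0.21 for Ostn, and in labelled strNrip1-/- from −0.085 to 0.36 for Metrnl and −0.029 to 0.30 for Apln. Interactions ran from −0.26 to 0.072 for Il15, −0.026 to 0.41 for Metrnl and −0.14 to 0.19 for Apln. Lif ran from −0.14 to 0.11 with genotype and from −0.26 to −0.024 with training, where the exact permutation p was 0.04 without labelled WT sedentary replicate 1.

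The replicate number is a label only. Deviations of same-numbered libraries correlated at −0.05 to 0.20 over 12 pairs, and 5 of the 12 correlated best with their own number. With the number as a replicate block, 4 genes were called with training in labelled WT instead of 0, and no call of a member changed.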

Other observations

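The genes most like each of the other tested members over the 12 libraries were found in the same way as for Fndc5, with no test. They were Mrps18b, Mrpl10 and Gm19196 for Il15 (r = 0.96, 0.94 and 0.92), Pdf, Brk1 and Fxyd1 for Metrnl (r = 0.93, 0.93 and 0.92), Cstf3, Gm12504 and Pak1 for Apln (r = 0.87, 0.83 and 0.81), Ccdc162, Psma4 and Eid1 for Ctsb (r = 0.93, 0.91 and 0.88) and Fxyd7, Gin1 and Dpf1 for Ostn (r = 0.85, 0.85 and 0.83). The third for Sparc, after the type I collagen chains, was Dus1l (r = 0.90). Mrps18b and Mrpl10 encode proteins of the mitochondrial ribosome, and their r with Il15 within groups was 0.85 and 0.79.

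In the remaining marker lists no gene passed in any comparison, where between 0% and 5.98% of all genes were called. The hemoglobin genes Hba-a2 and Hbb-bs averaged 536 ± 239 and 429 ± 175 FPKM in sedentary labelled WT muscle, and the macrophage genes Lyz2 and C1qa 28.5 ± 3.21 and 12.7 ± 1.5 FPKM. The fibroblast genes Clec3b and Dpt averaged 43.7 ± 3.68 and 20.95 ± 1.69 FPKM, the smooth muscle genes Acta2 and Tagln 21.2 ± 1.2 and 19.8 ± 1.63 FPKM, and the satellite cell genes Cdh15 and Myf5 6.36 ± 0.535 and 0.788 ± 0.368 FPKM. The adipocyte genes Cfd and Adipoq averaged 14.6 ± 5.99 and 1.91 ± 1.23 FPKM, and the tendon genes Fmod and Thbs4 135 ± 18.7 and 78.4 ± 8.62 FPKM. The neutrophil markers S100a8 and S100a9 did not reach the mean of 0.5 FPKM, and both were at 0 in some library.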
